A study of Mus musculus with 10 samples.

Results

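The genes described here encode the enzymes that build fatty acids in the cytosol and then lengthen and desaturate them: Acly, Acaca, Fasn, Scd1, Scd2, Elovl1, Elovl5, Elovl6, Fads1 and Fads2. They were chosen by name, and 8 of the 10 had an entry among the 10141 genes of the deposited table. Acly and Scd1 are not analysed here. Of the 8, 7 passed the filter on low values and Fads2 did not. RNA sequencing had been done on bone marrow cells of CD45.1 recipient mice that were injected through the tail vein with thawed MLL-AF9/GFP cells, which carry the leukaemia-driving MLL-AF9 fusion and a GFP reporter. Marrow was taken once GFP+ cells made up 2% of peripheral blood. The leukaemia group held 5 libraries of GFP+ cells, and the myeloid group held 5 libraries of GFP-negative CD11b+ cells from the micro-environment of such leukaemic marrow, so every animal carried leukaemia. No age, sex or untransplanted control is given in the labels, which list the genotype MLL-AF9/GFP and an acute myeloid leukaemia cell type for all 10 libraries. Groups were therefore taken from the titles. The protocol describes a flow cytometric sort of both populations, while the design text describes magnetic selection of the myeloid cells. Whether libraries come from separate mice is not stated in the labels. The p-values below thus reflect the spread among libraries only, and that spread may be technical. The series title names glucose partitioning in the leukaemic marrow as the subject.

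Fatty acid synthesis turns citrate exported from mitochondria into acetyl-CoA (ATP citrate lyase, Acly), carboxylates it to malonyl-CoA (acetyl-CoA carboxylase, Acaca) and joins these units into palmitate on a multi-domain enzyme (fatty acid synthase, Fasn). Elongases of the Elovl family then extend acyl-CoA chains in the endoplasmic reticulum. Stearoyl-CoA desaturases (Scd1, Scd2) add the first double bond to saturated chains, while Fads1 and Fads2 are the delta-5 and delta-6 desaturases of polyunsaturated chains. Many of these genes are known targets of the transcription factor SREBP-1, and the liver X receptors and NF-Y act on some of them. The carbon can come from glucose, which links the pathway to the subject of the series.

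The stretch upstream of Fasn is shown with those of Elovl5 and Elovl1, since these genes span the differences described below, from the highest through a small one to the lowest. The sequences are the 250 bases before the RefSeq transcription start on GRCm38.p6, on the gene's own strand, and are reference sequence and not reads. Capitals mark matches on either strand to a CCAAT box (CCAAT), an E-box (CACGTG), a GC box (GGGCGG) or a sterol response element (TCACNCCAC). The Fasn stretch lies at chr11:120824548-120824797 on the minus strand, the Elovl5 stretch at chr9:77917115-77917364 on the plus strand and the Elovl1 stretch at chr4:118427843-118428092 on the plus strand, where it is the upstream of a pair of RefSeq starts.
Fasn: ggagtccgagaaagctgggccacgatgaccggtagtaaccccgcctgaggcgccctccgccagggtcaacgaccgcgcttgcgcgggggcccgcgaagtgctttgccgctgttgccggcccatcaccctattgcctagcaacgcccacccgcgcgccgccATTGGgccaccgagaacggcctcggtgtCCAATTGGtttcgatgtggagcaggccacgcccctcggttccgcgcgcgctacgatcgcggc
Elovl5: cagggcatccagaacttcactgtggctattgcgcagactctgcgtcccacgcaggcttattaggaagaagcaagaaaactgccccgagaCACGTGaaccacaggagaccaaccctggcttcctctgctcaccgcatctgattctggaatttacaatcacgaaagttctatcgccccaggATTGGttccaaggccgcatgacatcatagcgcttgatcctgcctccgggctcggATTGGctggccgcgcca
Elovl1: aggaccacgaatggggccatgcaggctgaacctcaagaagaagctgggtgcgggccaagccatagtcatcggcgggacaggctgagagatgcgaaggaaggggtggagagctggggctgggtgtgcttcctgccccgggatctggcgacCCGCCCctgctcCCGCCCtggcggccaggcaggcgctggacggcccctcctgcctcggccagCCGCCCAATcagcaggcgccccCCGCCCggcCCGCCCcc

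Fasn held 3 CCAAT matches, the second and the third of which overlap in an inverted repeat. Elovl5 held 2 CCAAT matches and 1 E-box. In Elovl1 there were 5 GC boxes and 1 CCAAT match, which overlaps a GC box by 2 bases in the window shown, and the other Elovl1 start had 2 GC boxes. Fads2 had 1 GC box, and neither Acaca nor Elovl6 had a match to any of the 4 motifs in this window. No window of a member held the sterol response element as spelled here. Over 32851 windows of the same length, 33.8% held a CCAAT box, 32.7% a GC box, 6.02% an E-box and 1.05% the sterol element. These matches are descriptions of letters. The table of promoters matched 7 of the 10 genes, Acly among them, and did not match Fads1, Scd1 or Scd2. In the RefSeq order of protein-coding genes Fads1 and Fads2 are direct neighbours, and Scd2 lies between Scd3 and Scd4.

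Values are given as normalised reads, that is reads recovered from the deposited variance-stabilised values and divided by the size factor of the library. The 10141 genes held between 24099602 and 32247913 recovered reads per library, and their normalised sums were 1.56 times higher in myeloid than in leukaemia libraries. No gene of the table had an unadjusted p above 0.243, and 49.1% of 8079 tested genes passed as higher in leukaemia and 50.7% as lower. Position in the table followed p closely (Spearman correlation 0.979), so its genes look selected by their difference between these groups. Shares, medians and ranks here are over these genes, not over the whole transcriptome. Nearly every gene listed thus passes, so sizes and ranks of differences are given beside each call. Mature neutrophil markers (10 of 10 lower in leukaemia, summed level 53604 to 57877 normalised reads against 2203170 to 3547090) and the MLL fusion markers (5 of 5 tested higher, 12620 to 15197 against 432 to 707) separated the groups. Monocyte markers summed to 39500 to 75043 in leukaemia and 92441 to 168265 in myeloid libraries, with 7 of 7 lower. Of these 7, 4 passed as lower when reads were scaled to their sum over the table and 5 after quantile normalisation; Csf1r and F13a1 passed in neither, and Cx3cr1 passed only in the latter. Macrophage markers summed to 5947 to 7618 and 14985 to 17024, with 2 of 4 lower and 1 higher. The higher one, Vcam1 (4112 against 1088), had the highest mean of these markers in leukaemia. All other measured macrophage markers had lower means in leukaemia, among them Slc40a1 (1578 against 11301) and Hmox1 (674 against 2354). B cell markers summed to between 465 and 591 in leukaemia and between 483 and 2249 in myeloid libraries, highest in myeloid replicate 1. T and NK cell markers summed to between 2909 and 5879 in leukaemia and between 1542 and 3948 in myeloid libraries. In leukaemia nearly all of that sum was Nkg7 (4331 ± 1163 normalised reads, against 1004 ± 314 in myeloid libraries), a gene that also carries the direction of the sum. The other 6 measured T and NK markers had lower means in leukaemia, among them Ncr1 (0.928 against 451), Klrb1c (20.6 against 542) and Cd3d (5.92 against 243), and Cd3g was at 0 in every leukaemia library. The 2 erythroid markers with an entry summed to at most 62.0 and 245. Of 8 adipocyte markers, a cell type rich in these enzymes, 4 had an entry, and Lep and Cfd had no read in any myeloid library. In leukaemia Cfd had a mean of 31.7 and Lep a lower one. Retn went the other way, with means of 2.03 in leukaemia and 34.5 in myeloid libraries and no overlap. Cebpa, which myeloid cells also express, made up most of the sum of 2349 to 3558 in leukaemia and 1357 to 2178 in myeloid libraries. Myeloid replicates 2 and 4 stood apart from the other myeloid libraries in these sums. They had the highest mature neutrophil sums (3547090 and 2949710, against 2203170 to 2406400), the lowest B cell sums (537 and 483, against 1033 to 2249) and the lowest erythroid sums (5.91 and 13.9, against 163 to 245). Their monocyte sums were also the lowest of the group (92441 and 134583, against 162073 to 168265). Their macrophage sums were the highest (16958 and 17024, against 14985 to 15083). For that reason results were also computed without this pair. The part of these markers in the results below was not tested. In bulk RNA, fewer cells of a type and less RNA per cell cannot be told apart.

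Most of the measured enzymes were higher in leukaemia cells than in myeloid cells, with Fasn furthest apart, while the elongases did not move together. Of the 7 tested members, 5 were higher (Fasn, Scd2, Fads1, Acaca and Elovl5) and 2 lower (Elovl1 and Elovl6), with a median log2 difference of 0.99 against -0.16 over all tested genes. By the same fit, 49.1% of all 8079 tested genes passed as higher and 50.7% as lower. Scaled to the summed reads of the table (the table-total scaling), which shifts the median log2 fold of all genes by 0.64, 57.2% of all tested genes were higher and 27.6% lower. With this scaling 5 members were higher, Elovl1 was lower and Elovl6 did not pass. Libraries of the 2 groups were fully separated for 5 of the 7 tested members, and for 86.8% of all tested genes.

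**Figure D1:**
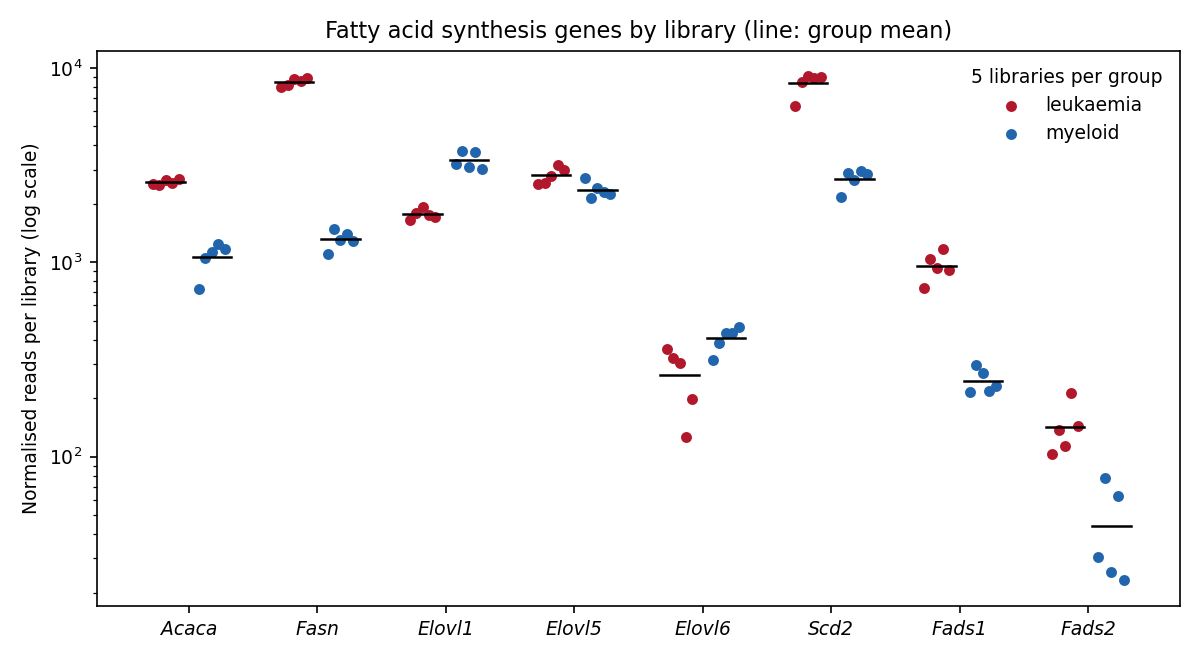
Normalised reads (log axis) of the 8 measured genes in each of the 5 leukaemia (red) and 5 myeloid (blue) libraries; black lines are group means. Fasn, Scd2, Fads1, Acaca and Fads2 are higher in every leukaemia library, Elovl1 is lower in every leukaemia library, and Elovl5 and Elovl6 overlap between the groups.

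Acaca encodes the cytosolic carboxylase that makes malonyl-CoA, the committed step of the pathway. In leukaemia replicates 1 to 5 it had 2531, 2515, 2656, 2555 and 2674 normalised reads, and in myeloid replicates 1 to 5 it had 726, 1059, 1130, 1245 and 1178. All leukaemia libraries lay above all myeloid libraries, and myeloid replicate 1 was the lowest of its group. Acaca was 2.42-fold higher in leukaemia (2586 ± 73.5 against 1068 ± 203, SD, n = 5 each), with a limma log2 difference of 0.99 (SE 0.0853, adjusted p = 1.38e-07).

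Fasn encodes fatty acid synthase, which carries all the steps from malonyl-CoA to palmitate. Its leukaemia libraries held 8004, 8186, 8796, 8549 and 8869 normalised reads, and its myeloid libraries 1106, 1489, 1297, 1404 and 1284. The spread within each group was small beside the gap between them, with a coefficient of variation of 4.45% in leukaemia and 10.9% in myeloid cells. The fold of 6.44 corresponded to a limma log2 difference of 2.29 (SE 0.0645, adjusted p = 6.18e-12). By log2 difference Fasn ranked 44th from the top of the 8079 tested genes, at percentile 99.5, while Acaca ranked 797th. Ranks by this measure favour highly expressed genes, because variance-stabilised differences understate changes of low genes. Of the normalised reads of the 8 genes, Fasn alone took 33.5% ± 1.37 per leukaemia library and 11.4% ± 0.624 per myeloid library (SD, n = 5 each). These are shares of reads with no correction for length, so they do not compare levels of different genes.

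The 3 genes whose profile over the 10 libraries lay nearest to Fasn were Wdr12, a ribosome biogenesis gene, Nrg4, a neuregulin family growth factor gene, and Ppm1f, a protein phosphatase gene. Their root mean square differences from Fasn, after centring each gene on its mean deposited log2 value, were 0.0752, 0.0829 and 0.103. Among the other members Scd2 was nearest at 0.433, followed by Fads1 at 0.625 and Acaca at 0.659. Likeness here is mostly a like gap between the groups in deposited values, which compress low levels. The log2 differences of Wdr12, Nrg4 and Ppm1f were 2.27, 2.19 and 2.17, against 2.29 for Fasn. Their folds were 12.9, 17.6 and 6.68, against 6.44 for Fasn.

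Scd2 encodes a stearoyl-CoA desaturase, which makes monounsaturated chains. It held 6390, 8424, 9097, 8860 and 8987 normalised reads in leukaemia replicates 1 to 5, and 2164, 2871, 2651, 2947 and 2837 in myeloid replicates 1 to 5. Replicate 1 was the lowest library in each group, yet the groups did not overlap. Scd2 was 3.10-fold higher in leukaemia (8352 ± 1126 against 2694 ± 316), with a limma log2 difference of 1.45 (SE 0.0998, adjusted p = 1.44e-08). The Scd genes are close copies of each other, and how the authors treated shared reads is not stated in the sources used here. The assignment to Scd2 is therefore uncertain.

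Fads1 encodes the delta-5 desaturase, which acts late in the synthesis of arachidonic acid. Its levels were 741, 1047, 933, 1176 and 910 normalised reads in leukaemia and 215, 297, 270, 217 and 231 in myeloid cells. Every leukaemia library lay above every myeloid library, with leukaemia replicate 1 the lowest of its group. The fold was 3.91 (961 ± 162 against 246 ± 36.0), and the limma log2 difference was 1.06 (SE 0.0784, adjusted p = 2.86e-08).

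Fads2 encodes the delta-6 desaturase, which catalyses the first step of the same route. It did not reach the filter. Leukaemia libraries held 103, 137, 114, 214 and 145 normalised reads, and myeloid libraries 30.3, 78.0, 25.6, 63.1 and 23.1. Behind these values stood 133 to 252 reads per leukaemia library and 17 to 66 per myeloid library. The groups did not overlap, and the myeloid libraries varied most of all members, with a coefficient of variation of 56.6%. The fold was 3.23 (142 ± 43.4 against 44.0 ± 24.9). With no filter on low values the limma log2 difference was 0.44 (SE 0.0831, adjusted p = 0.000235), which understates the change of a gene with so few reads. Myeloid replicates 2 and 4, which stood apart in the marker sums, held the highest Fads2 levels of their group, and the other 3 lay between 23.1 and 30.3. The Fads2 to Fads1 ratio of reads ranged from 0.122 to 0.182 in leukaemia and from 0.0950 to 0.291 in myeloid libraries, and so overlapped.

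Elovl1 elongates saturated and monounsaturated chains to very long chains. It held 1659, 1793, 1926, 1749 and 1716 normalised reads in leukaemia and 3191, 3750, 3102, 3695 and 3022 in myeloid cells. Every leukaemia library was below every myeloid library, and myeloid replicates 2 and 4 were the highest. Elovl1 was 1.90-fold lower in leukaemia (1769 ± 101 against 3352 ± 344), with a limma log2 difference of -0.75 (SE 0.0660, adjusted p = 1.58e-07), or -0.66 without myeloid replicates 2 and 4. In the GENCODE M21 annotation its exons overlap those of Cdc20, a mitotic gene on the opposite strand. Since the sources used here do not state how strand was treated in counting, reads of the pair cannot be told apart. Cdc20, named for this overlap after its values were seen, was 1.23-fold lower in leukaemia (2834 ± 55.1 against 3500 ± 251). Its limma log2 difference of -0.26 is smaller in size than the 0.64 median shift of the table-total scaling. The direction of Cdc20 may therefore not hold with that scaling.

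Elovl5 elongates polyunsaturated chains between the desaturation steps of Fads2 and Fads1. Its levels were 2543, 2564, 2793, 3151 and 2974 normalised reads in leukaemia and 2706, 2132, 2418, 2291 and 2253 in myeloid cells. Myeloid replicate 1 lay above leukaemia replicates 1 and 2, so the groups overlapped. The difference was 1.19-fold (2805 ± 262 against 2360 ± 219), with a limma log2 difference of 0.21 (SE 0.0701, adjusted p = 0.0125, from 2.7e-06 to 0.0859 over the alternatives). Elovl5 did not pass without myeloid replicates 2 and 4 (log2 difference 0.16, adjusted p = 0.0601) or when every reference gene was counted as a test (adjusted p = 0.0859). It was 0.89 in log2 fold with the table-total scaling.

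Elovl6 elongates palmitate to stearate, the step between fatty acid synthase and the stearoyl-CoA desaturases. It held 359, 323, 304, 126 and 198 normalised reads in leukaemia and 316, 386, 431, 434 and 465 in myeloid cells. The leukaemia libraries differed among themselves, with a coefficient of variation of 36.9%, and replicates 4 and 5 were the lowest. Leukaemia replicates 3 to 5 lay below all myeloid libraries, while replicates 1 and 2 lay above the lowest of them. Elovl6 was 1.55-fold lower in leukaemia (262 ± 96.6 against 406 ± 57.7), with a limma log2 difference of -0.32 (SE 0.105, adjusted p = 0.0112, from 0.000887 to 0.887 over the alternatives). With the table-total scaling it did not pass (log2 fold -0.04, adjusted p = 0.887), nor with every reference gene counted as a test (adjusted p = 0.077). An antisense gene without an entry in the table overlaps its exons in GENCODE M21.

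**Figure D2:**
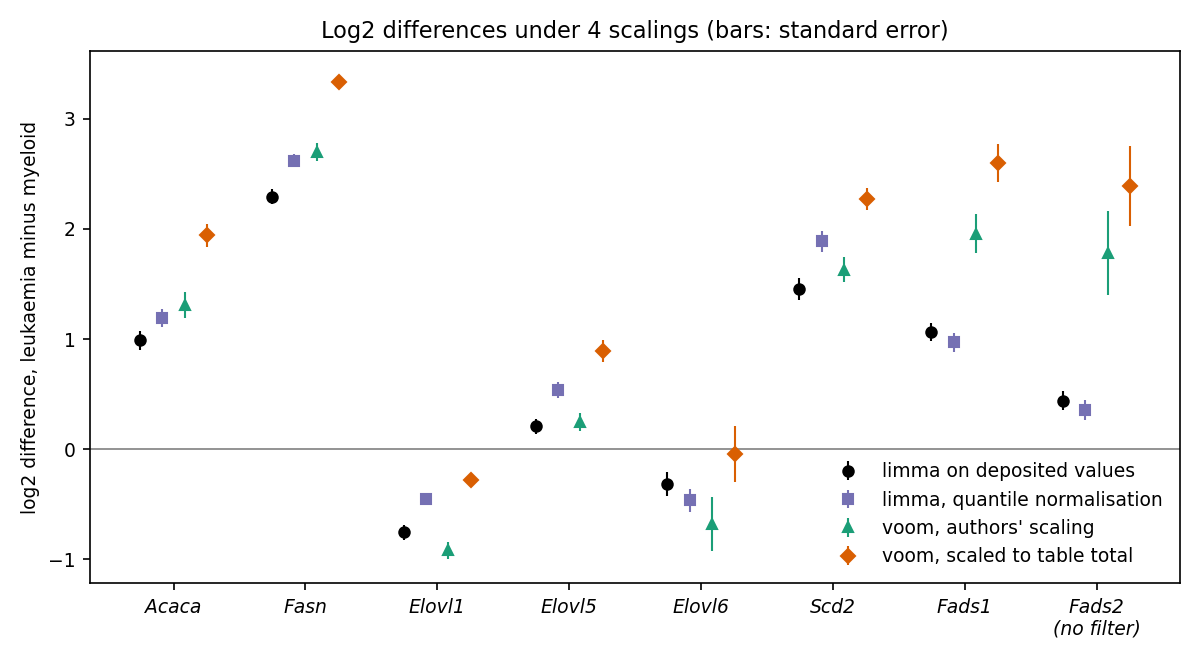
Log2 differences (leukaemia minus myeloid, with standard errors) of the 8 genes from limma on the deposited values, limma after quantile normalisation, and voom on recovered reads with the authors' scaling or with the table-total scaling. Fasn runs from 2.29 to 3.33, and Elovl6 reaches -0.04 with the table-total scaling; Fads2 comes from fits with no filter.

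Quantile normalisation moves the median log2 difference of all tested genes from -0.16 to 0.09. None of the 7 tested members nor Fads2 changed direction under the scalings tried. The log2 difference of Fasn was 2.62 after quantile normalisation, 2.69 with voom and the authors' scaling, and 3.33 with voom and the table-total scaling. Those of Scd2 were 1.89, 1.63 and 2.27, and those of Acaca were 1.19, 1.31 and 1.94. For Elovl1 they were -0.45, -0.92 and -0.28. Fads1 gave 0.97, 1.96 and 2.60, and Fads2 with no filter 0.36, 1.78 and 2.39. Variance-stabilised values compress low levels, so limma and voom numbers of low genes are on different scales.

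Ratios between 2 genes of the same library do not depend on its scaling. They are ratios of reads, not of levels per length, and are compared between groups only. The Fasn to Acaca ratio was 3.28 ± 0.0726 in leukaemia (3.16 to 3.35) and 1.26 ± 0.193 in myeloid cells (1.09 to 1.52), 2.60 times higher in leukaemia with no overlap. The Elovl1 to Elovl5 ratio was 0.635 ± 0.0655 in leukaemia (0.555 to 0.700) and 1.44 ± 0.242 in myeloid cells (1.18 to 1.76), 2.26 times lower in leukaemia, again with no overlap. The Elovl6 to Elovl5 ratio ranged from 0.0401 to 0.141 and from 0.117 to 0.206, and these ranges overlapped. Myeloid replicate 1 had the highest Fasn to Acaca ratio, and the lowest Elovl6 to Elovl5 and Elovl1 to Elovl5 ratios, of its group. Ratios to Scd1 and Acly are not analysed here.

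**Figure D3:**
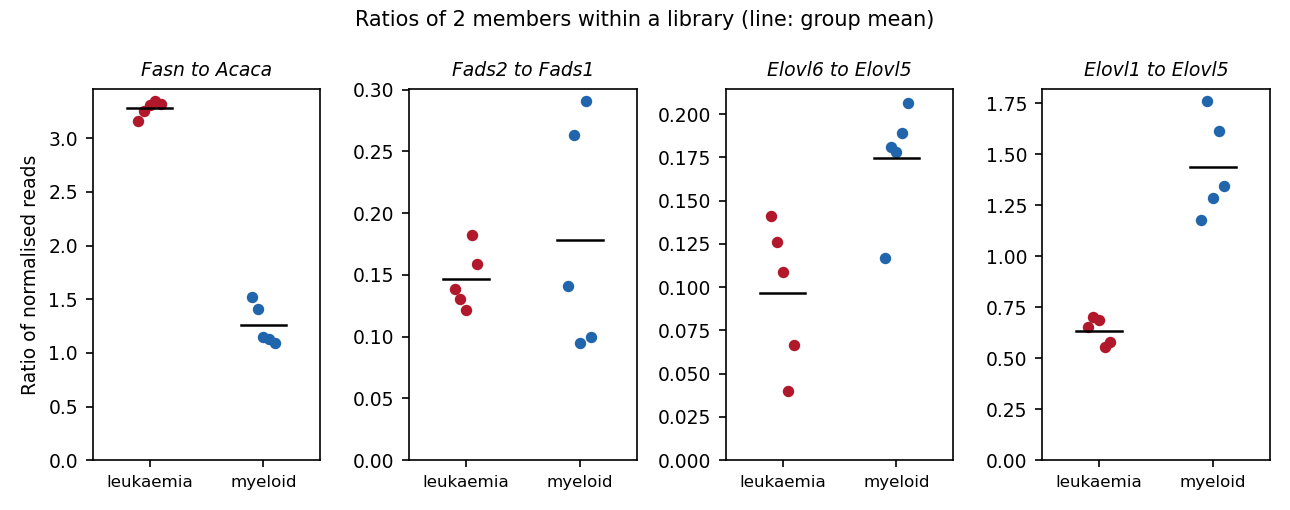
Ratios of normalised reads of 2 genes within each library (linear axes from 0; points are libraries, lines are group means). Fasn to Acaca is above 3 in every leukaemia library and at most 1.52 in myeloid libraries, Elovl1 to Elovl5 is lower in every leukaemia library, and the other 2 ratios overlap.

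Levels of different genes were ranked as normalised reads per kilobase of GENCODE M21 exon length, which may not be the annotation the authors used. In leukaemia Scd2 had the highest such level at 1529, followed by Elovl5 at 796, Fasn at 775, Elovl1 at 649, Fads1 at 200, Acaca at 151, Fads2 at 43.2 and Elovl6 at 40.7. Within that order the library ranges overlapped for Elovl5 (722 to 895) and Fasn (731 to 810), for Fads1 and Acaca, and for Fads2 and Elovl6. In myeloid cells Elovl1 came first at 1230, followed by Elovl5 at 670, Scd2 at 493, Fasn at 120, Elovl6 at 63.2, Acaca at 62.5, Fads1 at 51.1 and Fads2 at 13.4. The ranges of Elovl6, Acaca and Fads1 overlapped there. By this measure Elovl1 moved from the first place in myeloid cells to the fourth in leukaemia, and Scd2 from the third to the first. Without division by length, the 8 genes together summed to 25358 ± 1816 normalised reads per leukaemia library and to 11486 ± 727 per myeloid library (SD, n = 5 each).

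Genes that supply acetyl-CoA and NADPH to the pathway were mostly lower in leukaemia. Of 5 tested genes, 1 was higher and 4 lower in leukaemia (median log2 difference -0.91). Slc25a1, the mitochondrial citrate exporter gene, was 2.83-fold higher (limma log2 difference 0.93). Acss2, which makes acetyl-CoA from acetate, was 3.62-fold lower (-0.93), and G6pdx of the NADPH-making pentose phosphate pathway was 3.92-fold lower (-1.88). Me1 is not analysed here. With the table-total scaling 2 of the list were higher and 3 lower, and Slc25a1, Acss2 and G6pdx did not change direction.

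Genes that act on acetyl-CoA carboxylase, mostly subunits of the inhibitory kinase AMPK, were lower in leukaemia in 6 of 6 tested cases (median -0.74). Prkab1, a regulatory beta subunit gene, was 3.11-fold lower (log2 difference -1.38), and Prkaa1, a catalytic subunit gene, was 2.40-fold lower (-1.05). With the table-total scaling, 3 of the 6 passed as lower, Prkab1 (-0.99) and Prkaa1 (-0.62) among them. Acacb, which encodes the second acetyl-CoA carboxylase, lay below the filter and went the other way, at 105 ± 19.5 normalised reads in leukaemia libraries and 6.22 ± 6.62 in myeloid libraries with no overlap. Its values are given after they were seen.

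Other elongases and the enzymes that complete the elongation cycle divided, with 3 of 7 tested higher and 4 lower (median -0.39, or 0.21 with the table-total scaling). The dehydratase genes went different ways: Hacd1 was 9.17-fold and Hacd3 2.52-fold higher in leukaemia, while Hacd4 was 6.65-fold lower. Elovl7, an elongase gene, was lower (98.4 ± 18.8 against 1181 ± 238 normalised reads, log2 difference -1.72). Elovl4 lay below the filter. Of the desaturase partners, 3 of 6 were higher and 3 lower. Cyb5b, a cytochrome b5 gene, was 1.51-fold higher and Cyb5r3, a cytochrome b5 reductase gene, 1.34-fold higher, while the related genes Cyb5r4 (4.38-fold) and Cyb5r1 (4.65-fold) were lower.

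Mitochondria run a separate fatty acid synthesis that supplies lipoic acid. Of its 7 tested genes 5 were higher and 2 lower (median 0.41), and Lipt2 lay below the filter. Ndufab1, the acyl carrier protein gene, was 2.49-fold higher, and Mecr, the enoyl reductase gene, was 2.99-fold higher. Oxsm (1.28-fold) and Lias (1.21-fold) were lower, but both were higher with the table-total scaling (log2 folds 0.30 and 0.36), where 7 of 7 passed as higher.

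Transcription regulators of lipid synthesis were mixed, with 5 of 15 tested higher and 10 lower (median -0.31). With the table-total scaling, 8 were higher and 1 lower. Srebf1, which encodes SREBP-1, held 2947 ± 315 normalised reads in leukaemia libraries and 1981 ± 260 in myeloid libraries, a 1.49-fold difference (limma log2 difference 0.47, adjusted p = 0.000119). Srebf2, which encodes the sterol regulator SREBP-2, was 1.78-fold lower (log2 difference -0.76), and did not pass with the table-total scaling (-0.19, adjusted p = 0.0581). Scap, the escort protein gene of SREBP, was 2.05-fold higher and Mbtps1, the gene of a protease that cleaves SREBP, 1.57-fold higher. Insig2, which encodes a retention protein that holds SREBP back, was 1.92-fold lower. Nfyb, an NF-Y subunit gene, was 1.71-fold lower (log2 difference -0.57), and did not pass with the table-total scaling (adjusted p = 0.0828). Nr1h2, a liver X receptor gene, was 1.24-fold lower (log2 difference -0.28), but its difference was positive with the table-total scaling (0.32) and with quantile normalisation (0.22). Nr1h3, the other liver X receptor gene, was too low to be tested (36.3 ± 11.4 against 86.2 ± 57.8 normalised reads). Mlxipl and Insig1 are not analysed here.

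Genes that build glycerolipids from fatty acids were mostly lower in leukaemia. In this list 3 of 16 were higher and 13 lower (median -1.08, or -1.11 with the table-total scaling). Dgat1, which makes triglyceride, was 11.3-fold lower and Lpcat2, a lysophospholipid acyltransferase gene, 8.59-fold lower. The acyltransferase genes Agpat5 (2.35-fold) and Gpam (3.03-fold) were higher. Of 6 tested genes of fatty acid uptake and activation, 3 were higher and 3 lower (median -0.07). Slc27a4, a fatty acid transport protein gene, was 11.2-fold lower and Acsl1, an acyl-CoA synthetase gene, 2.57-fold lower, while Acsl3 (2.38-fold) and the acyl-CoA binding protein gene Dbi (1.94-fold) were higher. Cd36, Slc27a2 and Fabp4 lay below the filter.

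The sterol limb of the SREBP targets, which shares regulators with the fatty acid genes, had 8 of 15 tested genes higher and 7 lower (median 0.14). Fdps, a gene of isoprenoid synthesis, was 2.67-fold higher. Msmo1 (4.04-fold) and Mvd (3.02-fold) were lower. With the table-total scaling 8 of the list were higher and 4 lower, and Fdps, Msmo1 and Mvd did not change direction.

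**Figure D4:**
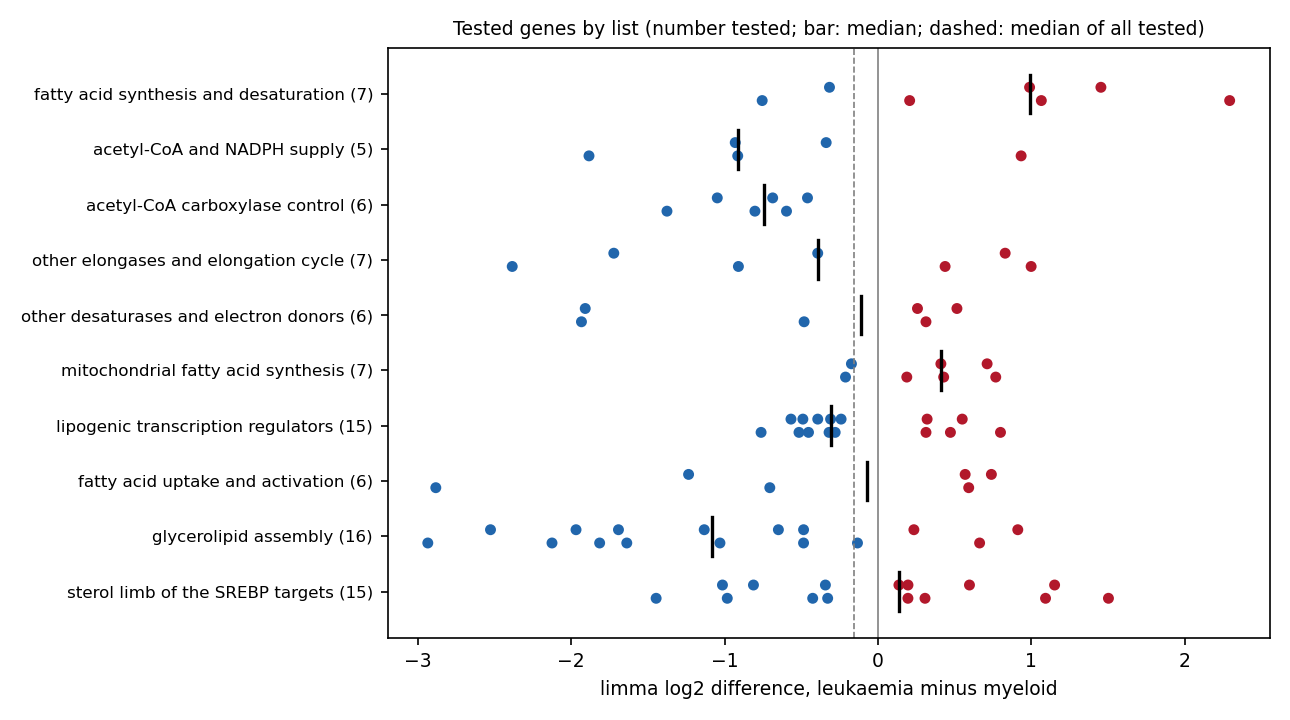
Limma log2 differences (leukaemia minus myeloid) of the tested genes of the fatty acid synthesis and desaturation set and 9 related lists; red is higher and blue lower in leukaemia, black bars are medians, and the dashed line is the median of all tested genes (-0.16). The fatty acid set has a median of 0.99, and the glycerolipid assembly list one of -1.08.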

How the data were processed

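The authors deposited 1 table of normalised, variance-stabilised log2 values for 10141 genes in 10 libraries made from TRIzol-extracted RNA. HISAT2 (versions 2.0.4 and 2.2.1) and DESeq2 are named in the submitters' processing notes; build, annotation, counter and strand setting are not given in the sources used here. The variance-stabilising function was inverted from the shared lowest value on the assumption of its parametric form. Low values (up to 300 reads, tolerance 0.1) were whole reads in 100% of cases per library.

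Groups were compared with limma (version 3.58.1, R 4.3.3; trended prior variance, two-sided, Benjamini-Hochberg over all tested genes, threshold 0.05), leukaemia minus myeloid. Genes were kept where the mean value was over 1 unit above the lowest, about 145 normalised reads. Log2 differences are of variance-stabilised means and understate changes of low genes, while folds are ratios of mean normalised reads. Named genes were all members, at most the 2 highest and 2 lowest passing genes of each related list, fixed regulators, and the 3 nearest profiles to Fasn. Members and lists were chosen with earlier results of these data known. Alternatives covered filters, scalings, a replicate block, the prior variance, the multiple-testing burden and leaving out each library.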

Additional observations from a re-analysis of the deposited data

Results flagged for a closer look

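The groups of 5 libraries were searched for a library that stood apart, for each of the 8 measured genes, so 16 groups in all. Chance marks about 1 in 20 such groups, and 1 was marked. Scd2 in leukaemia replicate 1 had a deposited log2 value of 12.76 (6390 normalised reads), and its gap to the next library was 0.78 of the range of the group, above the critical value of 0.71. Without leukaemia replicate 1 the limma log2 difference of Scd2 was 1.54.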

How the results depend on the processing

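The 7 tested members and Fads2 kept their direction under every alternative run on them. Leaving out each library in turn left 7 members passing (5 higher and 2 lower each time), and the log2 difference of Fasn ranged from 2.25 to 2.33. Under the stricter filter, which drops Fads1 and Elovl6, scaled to the total of the table, or with every one of 55341 reference symbols counted as a test, 1 member passed as lower. Of all genes, 2415 passed as higher under the stricter filter (3965 otherwise) and 2232 as lower scaled to the total of the table (4097 otherwise). Without myeloid replicates 2 and 4, an alternative chosen after seeing the data, 6 members passed. The deposited column names share the numbers 1 to 5 across both groups, but the labels do not say whether same-numbered libraries are pairs. Their deviations correlated from -0.02 to 0.32, which cannot decide this. The main fit did not take the numbers as pairs. With a replicate block 8018 of 8079 genes and all 7 members passed. Fads2 was run with no filter only, and its low reads limit its precision.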
